A study of Mus musculus with 6 samples.

Results

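Epithelial adhesion and keratin genes were described through 10 members: the cadherins Cdh1 and Cdh2, the keratins Krt8, Krt18 and Krt19, the surface adhesion gene Epcam, the claudins Cldn6 and Cldn7, the desmosome gene Dsp and the splicing regulator Esrp1. The members were 10 of 18193 genes on the array, and each non-control probe set annotated to exactly 1 of them was kept, which gave 16 of 45037 probe sets. Cdh2 and Epcam had 2 probe sets each, Krt8 and Dsp had 3 each, and the remaining 6 members had 1 each. Each of 6 Affymetrix mouse arrays was hybridised with 1 pool of RNA, so each group was 1 array with no replicate. The groups were the E13.5 testis of 129/Sv mice (20 testis pairs pooled), the E13.5 testis of 129.MOLF-Chr19 mice (20 pairs), the testis at postnatal day 1 (PN1) of 129/Sv (12 pairs) and of 129.MOLF-Chr19 (25 pairs), and whole male E13.5 embryos of 129/Sv (3 embryos) and of 129.MOLF-Chr19 (3 embryos). No group carried a transgene or a treatment in the labels, and all animals were male. 129.MOLF-Chr19, which the labels also write as M19, is a consomic strain: a 129 background whose chromosome 19 comes from the MOLF strain. It is studied because its males develop testicular germ cell tumours often, and the series asked which genes differ between the strains in the gonad when such tumours begin. The RefSeq annotation placed 0 of the 10 members on chromosome 19.

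Classical cadherins are calcium-dependent adhesion proteins that join neighbouring cells and link to the actin skeleton through catenins. E-cadherin (Cdh1) is typical of epithelia and of early germ cells and pluripotent cells, and N-cadherin (Cdh2) of neural and mesenchymal tissue, while Sertoli cells and fetal germ cells are also known to carry it. Keratins 8 and 18 pair as the intermediate filaments of simple epithelia, and Krt19 is a further simple-epithelial keratin that partners with Krt8. EpCAM is a surface glycoprotein of epithelia, germ cells and pluripotent cells, claudins form the tight junction strands, desmoplakin (Dsp) ties keratin filaments to desmosomes, and Esrp1 directs epithelial splice forms. The fetal testis holds cords of Sertoli cells and germ cells, with peritubular, Leydig, endothelial and other interstitial cells around them.

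RefSeq promoter windows of assembly GRCm38.p6 were read for 6 of the 10 members (7 windows, since Cldn7 had 2). None was read for Cdh1, Cdh2, Krt19 or Esrp1. The windows each ran from 250 bases before the annotated start to 10 bases after it. Those of Krt8, Krt18 and Cldn6 are shown because their strain differences passed 2-fold in the PN1 testis, and that of Epcam because it had the smallest adjusted p of the members in 2 of the tissue comparisons. Each is written 5′ to 3′ on the gene's strand, in lower case, with matches to 4 motifs on either strand in capitals. The motifs were CAGGTG, the E-box that Snai and Zeb repressors are known to bind; GGGCGG, to which Sp factors bind; TATAAA, an element of many core promoters; and TGANTCA, to which Jun and Fos proteins bind. The Krt8 window is chr15:102004333-102004592 on the minus strand, the Krt18 window chr15:102027966-102028225 on the plus strand, the Cldn6 window chr17:23679115-23679374 on the plus strand and the Epcam window chr17:87635729-87635988 on the plus strand.
Krt8: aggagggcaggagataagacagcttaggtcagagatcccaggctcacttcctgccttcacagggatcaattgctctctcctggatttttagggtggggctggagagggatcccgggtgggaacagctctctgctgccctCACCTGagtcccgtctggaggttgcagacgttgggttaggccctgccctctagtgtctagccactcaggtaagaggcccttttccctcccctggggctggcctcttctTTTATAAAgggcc
Krt18: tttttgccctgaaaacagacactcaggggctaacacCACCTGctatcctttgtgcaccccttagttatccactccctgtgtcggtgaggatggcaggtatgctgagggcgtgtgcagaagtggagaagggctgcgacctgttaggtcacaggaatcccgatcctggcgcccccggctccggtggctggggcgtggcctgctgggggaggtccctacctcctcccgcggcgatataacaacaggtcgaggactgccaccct
Cldn6: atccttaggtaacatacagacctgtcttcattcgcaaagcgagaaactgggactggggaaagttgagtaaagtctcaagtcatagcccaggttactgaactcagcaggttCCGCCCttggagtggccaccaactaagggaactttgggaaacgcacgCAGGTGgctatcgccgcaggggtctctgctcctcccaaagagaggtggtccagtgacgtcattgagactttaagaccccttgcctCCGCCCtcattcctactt
Epcam: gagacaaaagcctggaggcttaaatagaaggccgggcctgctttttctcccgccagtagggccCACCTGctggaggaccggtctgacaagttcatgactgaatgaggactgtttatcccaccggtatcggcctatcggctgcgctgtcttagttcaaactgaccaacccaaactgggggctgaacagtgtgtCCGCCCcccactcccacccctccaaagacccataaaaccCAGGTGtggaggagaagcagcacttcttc
CAGGTG or its complement occurred in 6 of the 7 member windows, the exception being 1 of the 2 Cldn7 windows, against 17.8% of 32851 windows of the same length. GGGCGG occurred in 4 of the 7 (33.4% of all windows), TATAAA in 1 (12.7%) and TGANTCA in 0 (7.03%). The TATAAA matches were those of Krt8, where the letters read as a match on both strands and the 2 matches overlap across the annotated start. The E-box match lay 111 bases before the start in Krt8, 214 before it in Krt18 and 93 before it in Cldn6, and Epcam had 2, at 187 and 19 bases before its start. A match describes letters in these windows and not a bound site. The motif counts leave out Cdh1, Cdh2, Krt19 and Esrp1, so they do not describe all members.

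Values are the deposited probe set intensities on a linear scale. Array medians ran from 220.5 to 250.7, and 1 probe set's level was not set against another's. The marker lists went with the labels: summed Sertoli cell markers ran from 12390 to 18380 on the 4 testis arrays and from 2658 to 3120 on the embryo arrays, and summed liver markers from 609.0 to 967.6 and from 8567 to 10730. The PN1 array of 129.MOLF-Chr19 had a 3′ to 5′ intensity ratio of 1.84 for the Actb control probe sets, against 1.09 to 1.19 on the other 5 arrays, while the Gapdh ratio ran from 0.895 to 0.966 on all 6. The 129/Sv embryo array had an 18S control signal of 3053, against 570.7 to 787.0 elsewhere. Every PN1 strain difference uses the array with the high Actb ratio and every embryo strain difference the array with the high 18S signal, and the part of either in them was not tested. These are bulk samples, in which fewer cells of a type and less RNA per cell cannot be told apart.

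**Figure D1:**
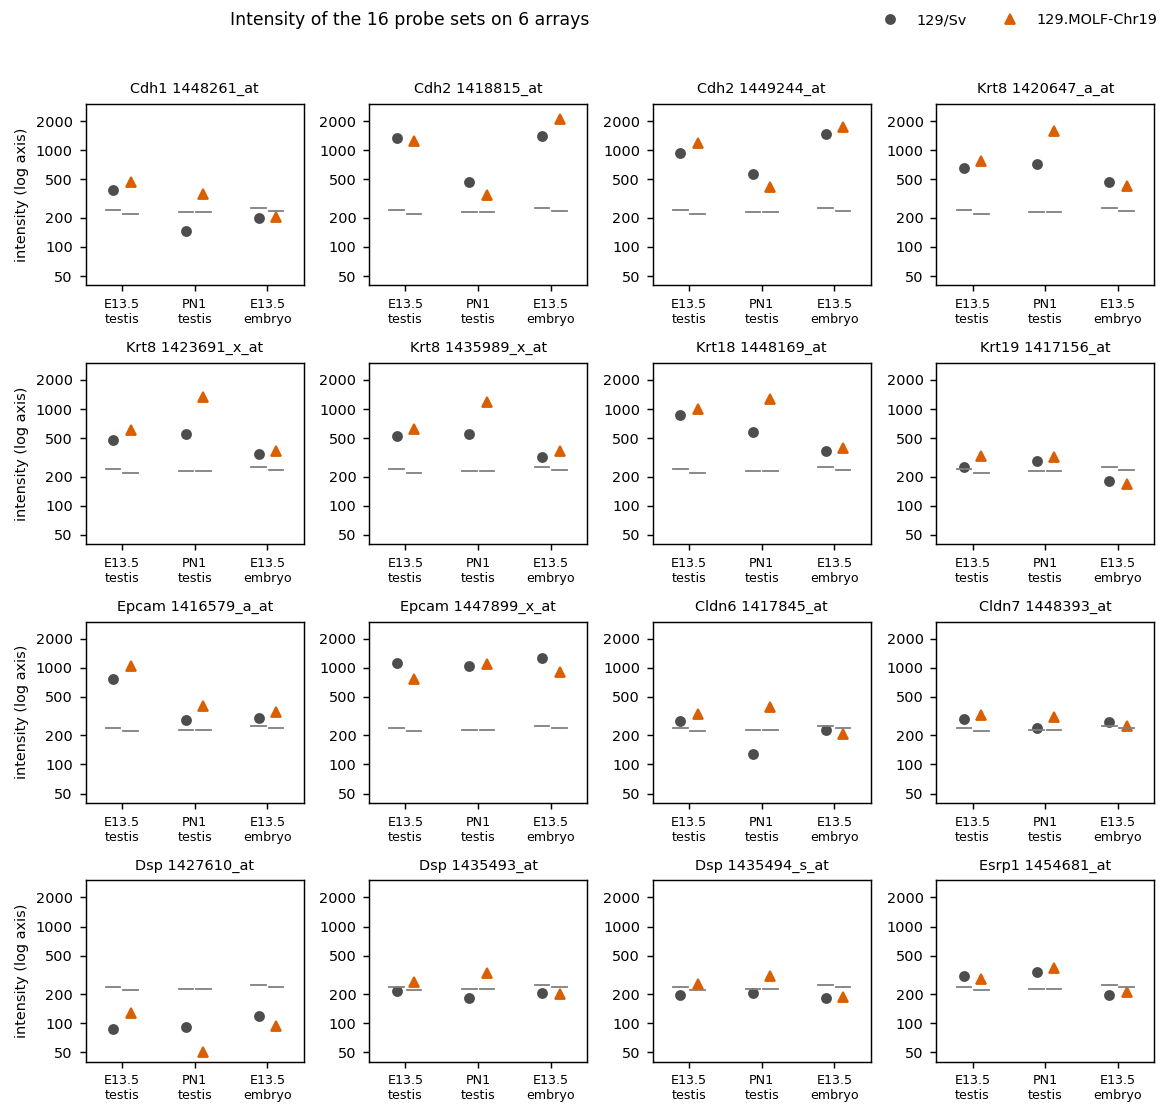
Intensity (log axis) of each of the 16 probe sets on the 6 arrays, with 129/Sv as circles, 129.MOLF-Chr19 as triangles and the median of each array as a short grey line; each point is 1 array of pooled RNA, so there are no error bars. Krt8, Krt18, Cldn6 and Cdh1 show a gap between strains in the PN1 testis (for Krt8 1420647_a_at, 716.4 against 1589), and both Cdh2 probe sets are lower in the PN1 testis than elsewhere.

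Strain differences within a tissue are given as 129.MOLF-Chr19 minus 129/Sv on the log2 scale, after each array was floored at its 25th percentile and centred on its median. They carry no test, having 1 array on each side, and a probe set was counted at 2-fold or more if its higher array lay above that array's median. In the PN1 testis, where the 129.MOLF-Chr19 array had the Actb ratio of 1.84, 6 of the 15 member probe sets compared were higher in 129.MOLF-Chr19 by 2-fold or more and 0 were lower. Over all 23805 probe sets compared in the PN1 testis, 0.202% were higher by that much and 1.69% were lower. The 6 probe sets belonged to 4 genes: Cldn6, Cdh1, Krt8 with all 3 of its probe sets, and Krt18. Cdh1 (145.3) and Cldn6 (128.3) lay below the median of the 129/Sv PN1 array (228.0), as did the Dsp probe sets compared. They entered the comparison only through the 129.MOLF-Chr19 array, where they were higher, and the members were chosen with earlier results of these data known. The count of 6 is therefore not read against the share of all probe sets. In the E13.5 testis 0 of 15 member probe sets compared and in the embryo 0 of 9 reached 2-fold in either direction, where 0.169% and 0.349% of all probe sets compared did.

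Cldn6, a claudin of early embryonic and primitive epithelia, had the largest strain difference among the 16 probe sets. Its intensity in the PN1 testis was 128.3 in 129/Sv and 389.9 in 129.MOLF-Chr19, a 3.03-fold difference. In the E13.5 testis it read 279.9 and 333.1, and in the embryo 228.5 and 205.1, both below the median of their array. The 129/Sv PN1 array was thus the low one among the 4 testis arrays, and the PN1 129.MOLF-Chr19 array was the high one.

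Cdh1 read 145.3 in 129/Sv and 350.6 in 129.MOLF-Chr19 in the PN1 testis, a difference of 2.41-fold. At E13.5 the testis pools read 384.8 and 468.6, and the embryo pools 198.2 and 202.4. All but the PN1 129/Sv array of the testis therefore lay above every embryo array. The count for Cdh1 rests on the floor and on the filter: with a floor at the 40th percentile its PN1 difference was 0.98 on the log2 scale, just under 2-fold, and Cdh1 and Cldn6 both left the comparison when the higher array had to exceed its 75th percentile.

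The keratin pair differed alike between the strains in the PN1 testis. Krt8 1420647_a_at read 716.4 in 129/Sv and 1589 in 129.MOLF-Chr19 (2.21-fold), 1423691_x_at read 556.3 and 1337 (2.40-fold), and 1435989_x_at read 551.5 and 1195 (2.16-fold). Krt18 read 575.4 and 1274 (2.21-fold). For all 4 probe sets the PN1 129.MOLF-Chr19 value was the highest of the 6 arrays. In the E13.5 testis Krt8 1420647_a_at read 657.5 and 780.9 and Krt18 read 869.2 and 1002, and in the embryo they read 470.0 and 426.7 and 368.2 and 399.9. The strain differences of these 4 probe sets ran from 0.32 to 0.46 on the log2 scale in the E13.5 testis and from -0.05 to 0.29 in the embryo. Krt19 did not share the PN1 difference: it read 290.1 and 317.6 there, 248.6 and 329.5 in the E13.5 testis, and 178.4 and 168.7 in the embryo.

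The other members stayed under 2-fold in the PN1 testis. Dsp 1435493_at read 184.5 in 129/Sv and 331.6 in 129.MOLF-Chr19, a log2 difference of 0.84, and Dsp 1435494_s_at read 204.1 and 310.9, a difference of 0.60. The third Dsp probe set, 1427610_at, ran from 50.03 to 129.0, was above no array's median and failed the filter on dim probe sets, so it was never compared. Epcam 1416579_a_at read 291.3 and 404.3 (0.47 on the log2 scale), and Cldn7 read 236.8 and 310.3 (0.39). Esrp1 read 335.6 and 372.6 (0.15). Cdh2 was the member whose 2 probe sets pointed the other way: 1418815_at read 467.3 in 129/Sv and 341.9 in 129.MOLF-Chr19, and 1449244_at read 569.2 and 421.8, log2 differences of -0.45 and -0.44.

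Among the member probe sets compared, the strain difference was positive for 14 of 15 in the E13.5 testis, with a median of 0.37 on the log2 scale. Over all 23679 probe sets compared there 60.4% were positive and the median was 0.07. In the PN1 testis 13 of 15 were positive with a median of 0.60, against 53.7% and 0.02 over all probe sets compared, and in the embryo 6 of 9 were positive with a median of 0.21, against 55.0% and 0.03. Cdh1, Cldn6 and the Dsp probe sets entered the PN1 comparison only through the 129.MOLF-Chr19 array, so their sign was fixed. The same held for Dsp in the E13.5 testis, where Cdh2 1418815_at (0.0) and Esrp1 (0.004) also counted as positive. These signs and medians are therefore not read against those of all probe sets. The values in the E13.5 testis were small for each gene, from -0.42 for Epcam 1447899_x_at to 0.54 for Epcam 1416579_a_at. Probe sets of 1 gene share their RNA and are not separate observations.

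**Figure D2:**
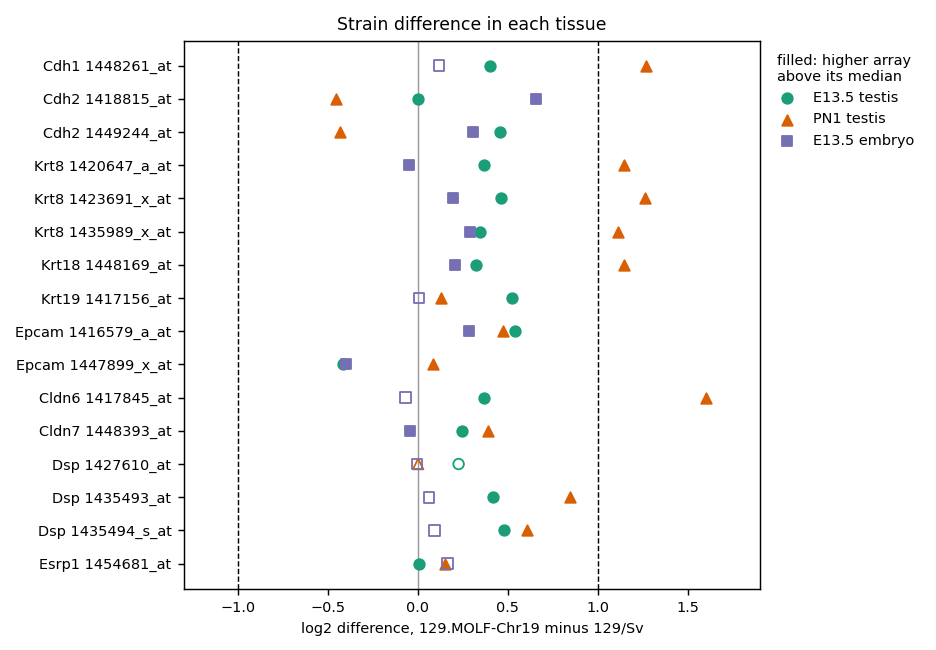
Log2 strain difference (129.MOLF-Chr19 minus 129/Sv, x axis) of each of the 16 probe sets in the E13.5 testis (circles), PN1 testis (triangles) and E13.5 embryo (squares); open symbols mark probe sets whose higher array was not above its median, and dashed lines mark 2-fold. Only 6 PN1 triangles, of Cldn6, Cdh1, Krt8 and Krt18, lie beyond a dashed line, the farthest at 1.60 for Cldn6.

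Across the 3 tissues together, a limma fit with tissue as a block called 0 of the 15 member probe sets that passed the filter (Benjamini-Hochberg adjusted p from 0.366 to 0.896), and 0.0121% of the 24713 probe sets tested were called. At an unadjusted p under 0.05, 7 of the 15 member probe sets passed, and 13.2% of all probe sets did. The 7 held Dsp 1435493_at and 1435494_s_at, which exceeded the median only on 129.MOLF-Chr19 testis arrays, where they were higher. The members were also chosen with earlier results known, so the count of 7 is not read against the share of all probe sets. Among the 7, Epcam 1416579_a_at was higher in 129.MOLF-Chr19 by 0.43 (SE 0.10, adjusted p 0.366), in 3 of 3 tissues, and Krt8 1423691_x_at by 0.64 (SE 0.20, adjusted p 0.366), also in 3 of 3. Cdh1 was higher by 0.60 (SE 0.21, adjusted p 0.366). The fit had 2 residual degrees of freedom, and its spread included the unlike strain differences of the tissues. Whether the strain difference in the PN1 testis differed from that in the other tissues was not tested, since a fit of that difference made too many false calls in simulated data.

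The tissues were compared in the same fit with strain as a block, which gave 2 arrays per tissue; the 3 comparisons share arrays. Between the E13.5 testis and the E13.5 embryo, 6 of 15 member probe sets rose in the testis and 0 fell, where 14.0% of all 24713 probe sets rose and 4.03% fell. The 6 were Epcam 1416579_a_at, Krt18, Cdh1, Krt8 1435989_x_at, Krt19 and Esrp1. Epcam 1416579_a_at read 772.8 and 1035 in the testis and 303.1 and 347.0 in the embryo, and was higher by 1.55 on the log2 scale (SE 0.13, adjusted p 0.000819), or 2.92-fold. Krt18 was higher by 1.37 (SE 0.23, adjusted p 0.0102) and Cdh1 by 1.17 (SE 0.26, adjusted p 0.0263). Smaller differences were those of Krt8 1435989_x_at at 0.81 (adjusted p 0.0443), Krt19 at 0.81 (adjusted p 0.0181) and Esrp1 at 0.63 (adjusted p 0.0171). The other Krt8 probe sets were higher by 0.76 and 0.68 without passing (adjusted p 0.1 and 0.11). Only the Epcam call outlasted leaving out any 1 of the 4 arrays, at 1.44 to 1.66 (adjusted p 0.0181 to 0.0343); the others kept their sign, with adjusted p from 0.0543 for Krt18 to 0.293 for Krt8 1435989_x_at. Cdh1, Krt19 and Esrp1, like Cldn6 and the 2 Dsp probe sets that passed the filter, lay below the median on both embryo arrays; these 6 entered the fit through testis arrays where they were higher, so the count of 6 calls is not read against the share of all probe sets. With no filter on dim probe sets, Epcam 1416579_a_at and Krt18 were the members that passed.

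From the E13.5 to the PN1 testis, 3 of 15 member probe sets fell and 0 rose, where 9.43% of all probe sets fell and 3.14% rose. They were both Cdh2 probe sets and Epcam 1416579_a_at. Cdh2 1418815_at read 1346 and 1241 at E13.5 and 467.3 and 341.9 at PN1, and fell by 1.68 on the log2 scale (SE 0.25, adjusted p 0.0098). Cdh2 1449244_at read 929.0 and 1176 and then 569.2 and 421.8, and fell by 1.08 (SE 0.22, adjusted p 0.0263). Epcam 1416579_a_at fell by 1.37 (SE 0.13, adjusted p 0.00251), to 291.3 and 404.3. For these 3 probe sets both PN1 arrays lay below both E13.5 testis arrays. Leaving out either E13.5 testis array took all 3 calls under the threshold (adjusted p 0.0708 to 0.309), with the direction kept.

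The change with age of Cdh1, Cldn6 and Krt8 depended on which PN1 array was read, as their strain differences there show. Cdh1 was lower at PN1 by 0.90 (SE 0.26, adjusted p 0.0722) over both strains. Without the PN1 129.MOLF-Chr19 array, the one with the high Actb ratio, the difference was -1.41, and that of Cldn6 was -1.17. Without the PN1 129/Sv array the 3 Krt8 probe sets were higher at PN1 by 1.08, 1.16 and 0.92. With all arrays they were higher by 0.58, 0.69 and 0.52 (adjusted p 0.212, 0.125 and 0.171). Calls of these fits are not counted, since no share over all probe sets stands beside them. In each of these fits PN1 was 1 array, assumed to vary like the other groups, and the spread came from the E13.5 strain differences alone, with 1 residual degree of freedom, so the large PN1 strain differences no longer entered it.

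Between the PN1 testis and the embryo, which differ in age as well as tissue, 6 of 15 member probe sets rose and 2 fell, where 9.1% and 6.48% of all probe sets did. The 3 Krt8 probe sets were higher by 1.34 (SE 0.27, adjusted p 0.0175), 1.37 (SE 0.25, adjusted p 0.0123) and 1.34 (SE 0.21, adjusted p 0.0078). Krt18 was higher by 1.25 (adjusted p 0.0141), Krt19 by 0.90 (adjusted p 0.0123) and Esrp1 by 0.90 (adjusted p 0.00432). Krt19 and Esrp1 again passed the filter through testis arrays only, so the count of 6 is not read against the share of all probe sets. The Cdh2 probe sets, at 1415 and 2100 and at 1488 and 1731 in the embryo, were lower in the PN1 testis by 2.02 (SE 0.25, adjusted p 0.00262) and 1.62 (SE 0.22, adjusted p 0.00409). Without the 129/Sv embryo array, the one with the high 18S signal, the 3 Krt8 differences ran from 1.559 to 1.748. Those of Cdh2 were then -2.458 and -1.767. Without the 129.MOLF-Chr19 embryo array Krt8 ran from 0.941 to 1.116, and Cdh2 was at -1.575 and -1.472. Without the PN1 129/Sv array the difference was 0.768 for Cdh1, 0.865 for Cldn6 and 0.676 and 0.697 for the 2 Dsp probe sets that passed the filter. Without the PN1 129.MOLF-Chr19 array it was -0.24 for Cdh1 and -0.586 for Cldn6. Each of these fits left 1 array in a tissue and took the spread from the other tissues, so their calls are not counted. The fit without the PN1 129/Sv array set the array with the high Actb ratio alone against the embryo.

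**Figure D3:**
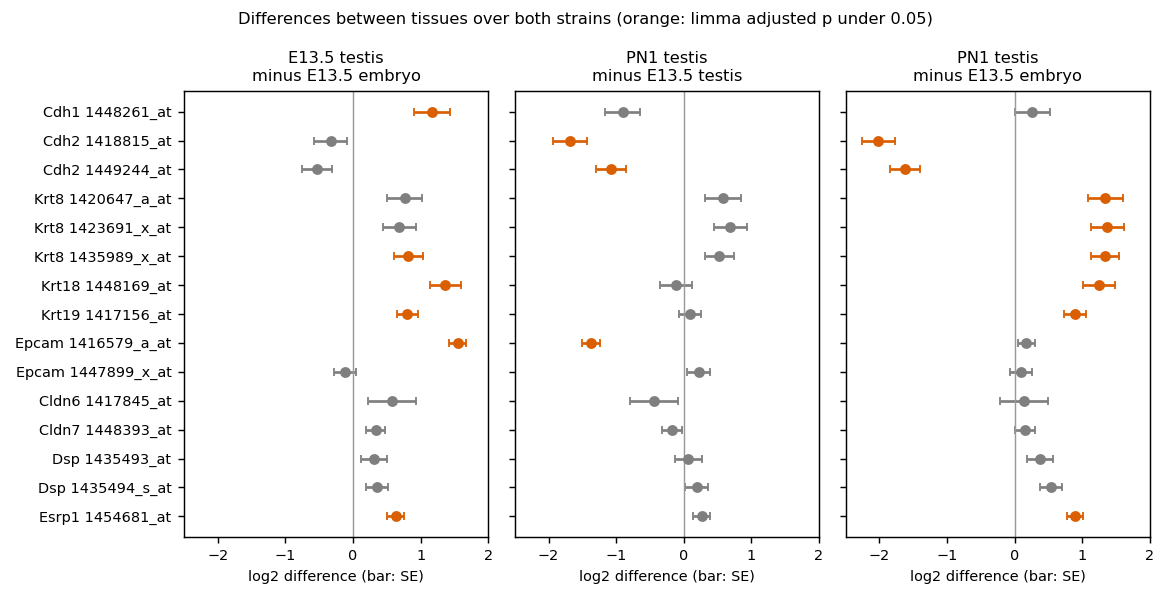
Log2 difference between tissues over both strains (x axis, bars are the SE of the limma fit) for the 15 member probe sets that passed the filter, in 3 panels that share arrays; orange marks an adjusted p under 0.05. Cdh2 lies farthest to the left at PN1 (-2.02 against the embryo) and Epcam 1416579_a_at farthest to the right in the E13.5 testis (1.55).

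By mean log2 level, Krt8 and Krt19 stood in the order PN1 testis, E13.5 testis, embryo, and Cdh2 in the reverse order. Their neighbours in that order that did not pass the test were the PN1 and E13.5 testis for Krt8 and Krt19, the E13.5 testis and embryo for 2 of the 3 Krt8 probe sets, and the E13.5 testis and embryo for Cdh2 (log2 differences of -0.33 and -0.54, adjusted p 0.408 and 0.152). Epcam 1416579_a_at was highest in the E13.5 testis, and its PN1 testis and embryo levels differed by 0.17 (SE 0.13, adjusted p 0.428).

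Probe sets of 1 gene followed each other over the 6 arrays except for Epcam and the dim Dsp probe set. The 3 pairs of Krt8 probe sets had Pearson r from 0.988 to 0.991, the Cdh2 pair 0.964 and the Dsp pair that passed the filter 0.95. The 2 Epcam probe sets had r of -0.552: while 1416579_a_at spanned 291.3 to 1035, 1447899_x_at read 1110 and 766.1 in the E13.5 testis, 1034 and 1099 in the PN1 testis, and 1255 and 896.1 in the embryo. The letter x in a probe set's name marks probes that may bind other transcripts too. The Epcam results above hold for 1416579_a_at and were not seen with 1447899_x_at, whose tissue differences ran from -0.12 to 0.22.

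Other genes of epithelial junctions, keratins and their regulators, 79 genes in 8 lists with 76 of them measured, were read by their brightest probe set. In the PN1 testis 61 were compared, and 1 was higher in 129.MOLF-Chr19 by 2-fold or more and 1 lower, where 0.204% and 0.888% of all 12729 genes compared were. The higher one was Cd24a, a surface glycoprotein of many immature epithelia, at 1024 in 129/Sv and 3569 in 129.MOLF-Chr19 (3.48-fold). The lower one was Gata6, a transcription factor of endoderm and of gonadal somatic cells, at 1689 and 811.4 (2.08-fold). In the same reading the 10 members had a median of 0.62 on the log2 scale and all genes 0.03. Cdh1, Cldn6 and Dsp among the members were compared only through the 129.MOLF-Chr19 array, where they were higher. The members' median is therefore not read against that of all genes or of the lists. Epcam stood in this reading with 1447899_x_at. Among the listed genes Snai2, Krt14 and Ehf also had a probe set with x in its name as their brightest. The list medians were -0.08 for adherens junction genes (0 of 12 past 2-fold; Afdn 0.41, Ctnnd1 0.25), 0.15 for tight junction genes (0 of 10; Cgn 0.44, Cldn4 0.30), 0.04 for desmosome genes (0 of 8; Pkp2 0.41, Pkp4 0.40) and -0.15 for other keratins (0 of 5; Krt10 0.43, Krt5 -0.39). They were -0.18 for epithelial regulators, 0.02 for surface and polarity genes, 0.16 for repressors of the epithelial state (0 of 4; Snai2 0.28, Zeb1 0.25) and -0.12 for mesenchymal genes (0 of 7; Col1a1 -0.67, Pdgfrb 0.27). No listed gene passed 2-fold in the E13.5 testis (64 compared, against 0.0878% of all genes) or the embryo (62 compared, against 0.339%). The fit across tissues called 0 of 67 listed genes, and 0.0% of all 13027 genes by their brightest probe set.

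**Figure D4:**
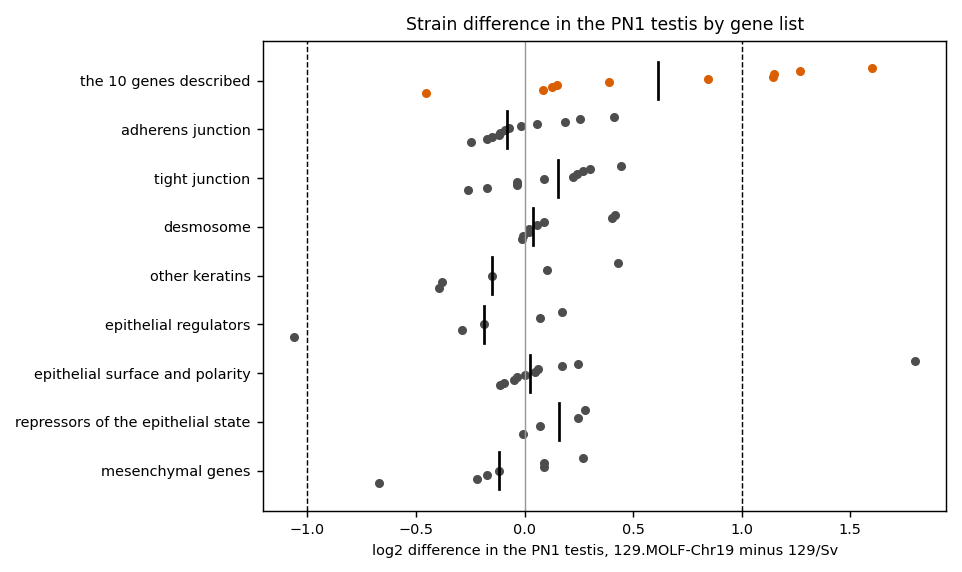
Log2 strain difference in the PN1 testis (129.MOLF-Chr19 minus 129/Sv, x axis) of the 10 members and of the genes compared in 8 lists, 1 point per gene at its brightest probe set; the black bar is the list's median and dashed lines mark 2-fold. The members' median is 0.62, that of every other list lies between -0.18 and 0.16, and Cd24a at 1.80 and Gata6 at -1.06 are the listed genes past a dashed line. Cdh1, Cldn6 and Dsp among the members were compared only through the 129.MOLF-Chr19 array, where they were higher, so the medians are not read against each other.

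Between the E13.5 testis and the embryo, 17 of the 67 listed genes rose in the testis and 6 fell, where 14.6% and 4.32% of all 13027 genes tested did. Of the genes that rose, Krt7, Cdh16 and Pard6b lay below the median on both embryo arrays and passed the filter through testis arrays only. The count of 17 is therefore not read against the share of all genes. Among adherens junction genes 5 of 12 rose and 1 fell, with Cdh11 higher by 0.89 (adjusted p 0.00815), the endothelial cadherin Cdh5 by 0.82 (adjusted p 0.0118) and Nectin2 by 0.67 (adjusted p 0.014), and Cdh4 lower by 1.28 (adjusted p 0.00132). Of 10 tight junction genes 4 rose: the scaffold gene Tjp1 (1.27, adjusted p 0.00291), Cldn12 (0.61, adjusted p 0.0204), Cldn11 (0.53, adjusted p 0.0244) and F11r (0.60, adjusted p 0.0292). Of 6 other keratins tested 3 fell, Krt14 by 1.01 (adjusted p 0.00415), Krt15 by 1.11 (adjusted p 0.005) and Krt5 by 0.70 (adjusted p 0.0138), all known from the basal layer of stratified epithelia, and the simple-epithelial Krt7 rose by 0.77 (adjusted p 0.0329). Krt10, of the upper epidermal layers, was at 0.21 (adjusted p 0.348). Gata6 rose by 2.20 (adjusted p 0.00758), the kidney cadherin Cdh16 by 1.21 (adjusted p 0.0017), the protease inhibitor gene Spint2 by 1.17 (adjusted p 0.0066) and the polarity gene Pard6b by 0.79 (adjusted p 0.0137). Pard6b read 188.6 and 208.3 in the E13.5 testis, below the medians of those arrays. It was at or below the floor on both embryo arrays, so its difference is set by the floor. Among the repressors Snai2 rose by 1.42 (adjusted p 0.00109) and Twist1 fell by 1.32 (adjusted p 0.00186). Of the mesenchymal genes Pdgfrb rose by 1.52 (adjusted p 0.00076) and Pdgfra by 1.02 (adjusted p 0.00641), and Nes fell by 0.62 (adjusted p 0.017). Of 9 desmosome genes 0 passed by limma, the largest differences being those of Pkp4 (0.43, adjusted p 0.0558) and Pkp2 (0.33, adjusted p 0.134).

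From the E13.5 to the PN1 testis 1 listed gene rose and 6 fell, where 3.4% and 8.54% of all genes did. The one that rose was Marveld2, which encodes the tight junction protein tricellulin. It read 105.7 and 108.3 at E13.5, at or close to the floor of those arrays, and 317.2 and 375.5 at PN1, so its difference of 1.61 (adjusted p 0.00263) is set by the floor and understates the change in intensity. Marveld2 passed the filter through the PN1 arrays only, so the count of 1 is not read against the share of all genes. The 6 that fell were the repressor genes Snai2 (-1.57, adjusted p 0.0015), Snai1 (-0.83, adjusted p 0.0147) and Twist2 (-0.53, adjusted p 0.034), the cadherins Cdh11 (-1.43, adjusted p 0.003) and Cdh16 (-1.02, adjusted p 0.00575), and the mesenchymal receptor gene Pdgfrb (-1.31, adjusted p 0.00256).

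Against the embryo, 11 listed genes rose in the PN1 testis and 9 fell, where 9.93% and 6.36% of all genes did. Cdh5 rose by 1.31 (adjusted p 0.00175) and Nectin2 by 0.85 (adjusted p 0.00528), and Cdh4 fell by 1.33 (adjusted p 0.000745) and Cdh11 by 0.54 (adjusted p 0.0481). The 4 tight junction genes that rose were Marveld2 (1.60, adjusted p 0.000967), F11r (0.85, adjusted p 0.00824), Cldn12 (0.76, adjusted p 0.00933) and Tjp1 (0.79, adjusted p 0.0146). Pkp2 was the desmosome gene that rose, by 0.51 (adjusted p 0.0417). Krt15, Krt14 and Krt5 fell by 1.46, 0.70 and 0.61 (adjusted p 0.00135, 0.0143 and 0.0231). Gata6 rose by 2.05 (adjusted p 0.00905), Spint2 by 1.69 (adjusted p 0.0013), Pard6b by 1.25 (adjusted p 0.00212) and Pdgfra by 0.95 (adjusted p 0.00753). Cd24a fell by 1.89 (adjusted p 0.0203), Twist1 by 1.63 (adjusted p 0.000551), Twist2 by 0.81 (adjusted p 0.00554) and Nes by 0.68 (adjusted p 0.012). Marveld2 and Pard6b were at or below the floor on both embryo arrays and passed the filter through the PN1 arrays only. Krt15 and Twist1 lay below the median on both PN1 arrays. The counts of 11 and 9 are therefore not read against the shares of all genes.

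Markers of cell types were read beside the PN1 strain difference, in which 3 of 71 compared were higher in 129.MOLF-Chr19 by 2-fold or more and 3 lower. Over all 12729 genes compared, 0.204% were higher by that much and 0.888% lower. Of the pluripotency and embryonal carcinoma markers 2 of 6 were higher: Pou5f1, the germ cell and stem cell factor also called Oct4, read 176.5 in 129/Sv and 453.9 in 129.MOLF-Chr19, and Dnmt3b, a DNA methyltransferase, read 373.3 and 848.0. The other 4 compared were lower in 129.MOLF-Chr19, with Lin28a at -0.45 on the log2 scale and Utf1, Fgf4 and Dppa5a between -0.06 and -0.04, and the median of the 6 was -0.05. The summed intensity of that list was 3660 and 4414. Nanog (38.8 and 70.7), Sox2 (82.3 and 158) and Tdgf1 (34.7 and 154) lay below the median of both PN1 arrays, and 0 of the markers of any list were at 0 on any array. Of the primitive or visceral endoderm markers 1 of 6 was higher by 2-fold or more, Cer1, at 89.4 and 1076, with list sums of 2323 and 3539. By sign 4 of the 6 were higher and the median was 0.51. Sox17 read 206.1 and 375.5 and Foxa2 145.6 and 283.2, both under 2-fold, while Afp (-0.195) and Hnf4a (-0.103) were lower. Pou5f1, Cer1, Sox17 and Foxa2 lay below the median of the 129/Sv PN1 array, so the count of higher markers is not read against the share of all genes. Germ cell markers summed to 6136 and 4343. The lower sum came from Dazl, a germ cell RNA-binding protein gene (2718 and 695.3), while 5 of the 7 compared were higher in 129.MOLF-Chr19 and their median was 0.01. Peritubular and interstitial markers summed to 22290 and 16070, with 1 of 7 lower by 2-fold or more, the interstitial transcription factor gene Nr2f2 (3325 and 557.5), and a median of -0.23. The third marker lower was Acta1, the skeletal muscle actin gene (549.2 and 247.4). Sertoli cell markers summed to 18380 and 17750 with 0 of 8 past 2-fold. The sums were 1557 and 1437 for the mesonephros and duct, 1583 and 1387 for the mesothelium and 3056 and 2865 for the epidermis. Pax8 and Lhx1 of the duct list differed little between the E13.5 testis and the embryo (-0.22 and -0.17 on the log2 scale), so that sum is a weak gauge of such cells. Cdh1, Krt8, Krt18 and Cldn6 are known in both pluripotent and epithelial cells. The part of these cell types in the members' differences was not tested.

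The genes most like Cdh1 and Krt8 over the 6 arrays were sought among 4414 probe sets outside the members with a range of at least 1 on the log2 scale, as a description only. The 5 most like Cdh1 were Spc25 (Pearson r 0.982), Cnot2 (0.971), Ing1 (0.956), Zeb2 1456389_at (0.954) and G2e3 (0.951), and 6 probe sets in all reached 0.95. The brightest Zeb2 probe set, 1458941_at, did not share this pattern, reading 559.1 and 557.4 in the PN1 testis against 384.2 and 532.7 for 1456389_at. For Krt8 1420647_a_at they were Trip11 (0.991), Prpf4b (0.977), Cd200 (0.976), Lrrc1 (0.971) and Tspo (0.969), with 15 probe sets at 0.95 or more. Cd200 read 759.7 in 129/Sv and 1739 in 129.MOLF-Chr19 in the PN1 testis. For Krt19 they were Me2 (0.996), P3h4 (0.994), Cbr4 (0.992), Sgpl1 (0.991) and Tspan4 (0.99), and 185 probe sets reached 0.95. With 6 arrays of 3 tissues, whose points share pools and arrays, many probe sets follow a tissue order as closely as Krt19 does.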

How the data were processed

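RNA from 6 pools was measured on 6 Affymetrix arrays. The labels' protocols describe cDNA synthesis from an oligo-dT primer, which favours the 3′ ends of transcripts. The values are probe set intensity on a linear scale as deposited by the authors; the software and normalization behind them are not given in the sources used here. Of 45101 probe sets, 64 were controls; 34958 were annotated to exactly 1 symbol, 932 to several and 9211 to none, with symbols updated through RefSeq gene identifiers (GRCm38.p6 table). No probe set of several symbols held a member.

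Values were floored at each array's 25th percentile, log2 transformed and centred on the array's median. Strain differences within a tissue had no test and were counted at 2-fold; they are on this floored scale, which understates differences of dim probe sets. limma 3.58.1 in R 4.3.3 (lmFit with tissue and strain as terms, eBayes with trend) was fitted to the 24713 probe sets that exceeded the median of 2 or more arrays, with Benjamini-Hochberg adjustment over all of them at 0.05. Nothing in the labels gives replicate pools, so the fit's spread is that of the strain difference between tissues, with 2 residual degrees of freedom. The scripts were tested on simulated data, in which these fits made from 18 to 31 false calls each among 24713 probe sets. That was above the nominal rate in every fit. The most were made for the PN1 against the E13.5 testis (31) and the E13.5 testis against the embryo (26). Tables and figures were made with Python 3.11.15, pandas 2.3.3, numpy 2.4.6 and matplotlib 3.10.9. The number of arrays limits the precision.

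Every member probe set was described. Listed genes were named where they passed 2-fold or the limma threshold (up to 4 per list, by smallest p), and some of the others as the 2 of largest difference; for likeness, the 5 genes with a probe set of highest Pearson r to the brightest probe set of Cdh1, Krt8 and Krt19 were named. Cell type markers were named where they passed 2-fold in the PN1 testis, with a few others given as values. The members and lists were chosen with earlier results of these data known. The alternatives tried were other scaling, floors, filters, fold thresholds, variance models, no block, gene means and leaving out arrays.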

Additional observations from a re-analysis of the deposited data

How the results depend on the processing

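Under other scaling, floors, filters, fold thresholds, variance models and gene means, the count of member probe sets higher in 129.MOLF-Chr19 in the PN1 testis went from 6 at 2-fold to 1 at 3-fold (Cldn6), and stayed within 1.5 times under the others (4 to 8). In the embryo it was 1 at 1.5-fold (Cdh2 1418815_at) and 0 at 2-fold. The fit across tissues called 0 members in every alternative run. For the E13.5 testis against the embryo the 6 calls became 3 when probe sets had to exceed the 75th percentile, 2 with no filter and 1 without any single array. The 3 calls for the PN1 against the E13.5 testis and the 8 for the PN1 testis against the embryo changed with the array left out. Such fits leave 1 array in a tissue, so the counts for these comparisons are not given.

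Values whose sign reversed were not called with all arrays. With 1 array (or the pair of a tissue) left out, Cdh2 ran in the strain fit from -0.23 to 0.33 (1418815_at) and from -0.065 to 0.38 (1449244_at). For PN1 against E13.5 testis Krt18 ran from -0.56 to 0.33, Krt19 from -0.13 to 0.32, Epcam 1447899_x_at from -0.028 to 0.47 and Cldn6 from -1.17 to 0.29, and Krt18 was 0.073 after quantile normalization. For the E13.5 testis against the embryo Cdh2 1418815_at ran from -0.77 to 0.11 and Epcam 1447899_x_at from -0.25 to 0.013. For the PN1 testis against the embryo Cdh1 ran from -0.24 to 0.77, Epcam 1447899_x_at from -0.15 to 0.35, Cldn6 from -0.59 to 0.87 and Cldn7 from -0.027 to 0.33. The cause was not tested. Of the values of single probe sets under the alternatives, 1017 kept direction and side of the threshold, 50 lost and 12 gained a call, 11 moved and 17 reversed. No paired analysis was possible because the labels give no replicate numbers; strain and tissue stood as terms of the fit instead. Dsp 1427610_at was at or below the floor on 5 of 6 arrays and allowed no comparison.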
